A study of Mus musculus with 14 samples.

Results

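Matrix metalloproteinases and their inhibitors were followed through skeletal muscle of mice with and without endothelial c-Myc overexpression, on control and western diet. The 10 genes were taken by name from the deposited tables of 54532 genes: Mmp2, Mmp9, Mmp14 and Mmp15, the tissue inhibitors Timp1, Timp2, Timp3 and Timp4, and the ADAMTS proteinases Adamts1 and Adamts5. Matrix metalloproteinases are zinc enzymes that cut collagens and other proteins of the extracellular matrix, and most are made as inactive proforms. Mmp2 and Mmp9 are the secreted gelatinases, which degrade basement membrane collagen, while Mmp14 and Mmp15 sit in the cell membrane, and Mmp14 activates the proform of Mmp2 together with Timp2. TIMP proteins bind the active site of the enzymes, and ADAMTS proteinases are secreted relatives that cut proteoglycans. In muscle these enzymes take part in the turnover of the connective tissue around fibers and capillaries.

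RNA-seq was performed on 14 libraries of skeletal muscle from male FVB/N mice. By the labels, 3 libraries came from control mice on control diet (CT-CTD), 3 from control mice on western diet (CT-WD), 4 from overexpressing mice on control diet (OE-CTD) and 4 from overexpressing mice on western diet (OE-WD), and a number after the group name is the replicate. EC-Myc OE mice carried the Tet-O-Myc transgene, a human c-Myc sequence on the Y chromosome, together with Cdh5-tTA, in which an endothelial promoter drives the transactivator, and CT mice were littermates with Tet-O-Myc that lacked tTA, so both genotypes held the transgene. Doxycycline diet kept the transgene silent until it was withdrawn at 4 to 6 weeks of age, and the control or western diet was given for 20 weeks by the labels, whereas the study's results text names a shorter time on diet for the transcriptome. The muscles were soleus and gastrocnemius by the study's methods, and the labels do not say which muscle a library came from. The endogenous mouse Myc gene ranged from 4.45 to 13.3 CPM (median 5.52) in the 6 CT libraries and from 3.06 to 9.03 CPM (median 5.81) in the 8 EC-Myc OE libraries, so its ranges overlapped, and no reads from the human transgene were examined.

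Counts of reads per gene summed to between 21833839 and 28519159 per library. Levels of a gene are given as CPM, read counts scaled to a common library total and composition with TMM, and levels of different genes are compared as the authors' FPKM, which also divide by gene length. A gene was called altered at a fold change over 1.5 with an adjusted p-value under 0.05 in edgeR's quasi-likelihood test, and the count at an unadjusted p-value under 0.05 with the same fold change is given beside it as the unadjusted level. All 10 genes passed the filter on low counts, which left 15458 genes.

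Some libraries stood apart from the rest of their group, and the labels leave the replicates partly undefined. The sample codes of OE-CTD 1, 2 and 3 share a number, those of OE-WD 1 to 4 share another, and nothing states whether libraries with a shared number came from separate animals. P-values therefore measure the spread between these samples, which may be technical in part. Counts of OE-CTD 1, 2 and 3 differed from each other with a chi-square per degree of freedom between 7.81 and 10.6, and from OE-CTD 4 with 37.0 to 43.0. In OE-WD the range was 8.52 to 15.2 among replicates 1 to 3 and 38.9 to 42.8 against replicate 4. Between libraries without a shared number it was 16.8 to 27.0 in CT-CTD and 29.7 to 50.8 in CT-WD. The legend on the transcriptome gives the larger groups to the western diet, while the labels give them to EC-Myc OE, and groups were kept as labelled.

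CT-WD 1 carried more connective tissue RNA than CT-WD 2 and 3. Its summed level of 9 markers of fibroblasts and fibro-adipogenic progenitors was 2057 CPM against 932 and 919 CPM, its summed tendon markers were 520 CPM against 86.4 and 110 CPM, and its summed epidermis markers 116 CPM against 17.6 and 20.8 CPM. Epidermis markers were not high in CT-WD 1 alone, since their sum was 97.4 CPM in OE-WD 2 and 143 CPM in OE-WD 3. The genotype comparisons are therefore also given without CT-WD 1, a fit in which 905 of 15828 genes were altered on western diet and 440 on control diet, where CT-WD 1 acts only through the shared estimate of the spread and the set of genes tested. With all 14 libraries, 87 and 295 of 15458 genes were. Leaving out OE-WD 2, the library with the most fibroblast and tendon marker RNA, moved the western diet the other way, to 4 of 15362 genes, with 0 of the 10 genes and 0 genes of any list below among those altered. This fall was not particular to OE-WD 2. Fits without OE-WD 3, CT-WD 3, CT-WD 2 and OE-WD 4 gave 6, 7, 13 and 13 altered genes on western diet. In bulk muscle, more cells of a type and more RNA per cell cannot be told apart.

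Timp2 was the most abundant of the 10 genes in each group by mean FPKM, and Mmp9 the least. In CT-CTD, Timp2 had 21.3 ± 4.01 FPKM (SD, n = 3) and lay above all others, followed by Mmp15 (12.0 ± 2.22), Mmp2 (10.6 ± 1.83), Timp3 (9.07 ± 2.03), Adamts1 (8.25 ± 1.79) and Timp4 (7.52 ± 1.23). The ranges of neighbours from Mmp15 to Timp4 in this order overlapped, so these 5 levels do not form separate steps. Adamts5 (1.87 ± 0.188), Mmp14 (1.28 ± 0.375), Timp1 (0.784 ± 0.517) and Mmp9 (0.162 ± 0.0806) were lower, and Mmp14 and Timp1 overlapped. In OE-CTD, Mmp2 with 24.0 ± 3.75 FPKM (SD, n = 4) stood second behind Timp2 (35.4 ± 4.34) and clear of Adamts1 (13.0 ± 2.22), while Timp4 had dropped to 3.79 ± 0.338, clear of Timp3 (9.76 ± 0.717) above and of Mmp14 (2.86 ± 0.490) below. The order of mean levels in OE-WD matched OE-CTD except that Timp3 (12.4 ± 1.07) stood above Mmp15 (11.04 ± 1.40), with overlapping ranges. Timp1 and Mmp9 rested on few reads, 5 to 42 and 6 to 56 counts per library.

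**Figure D1:**
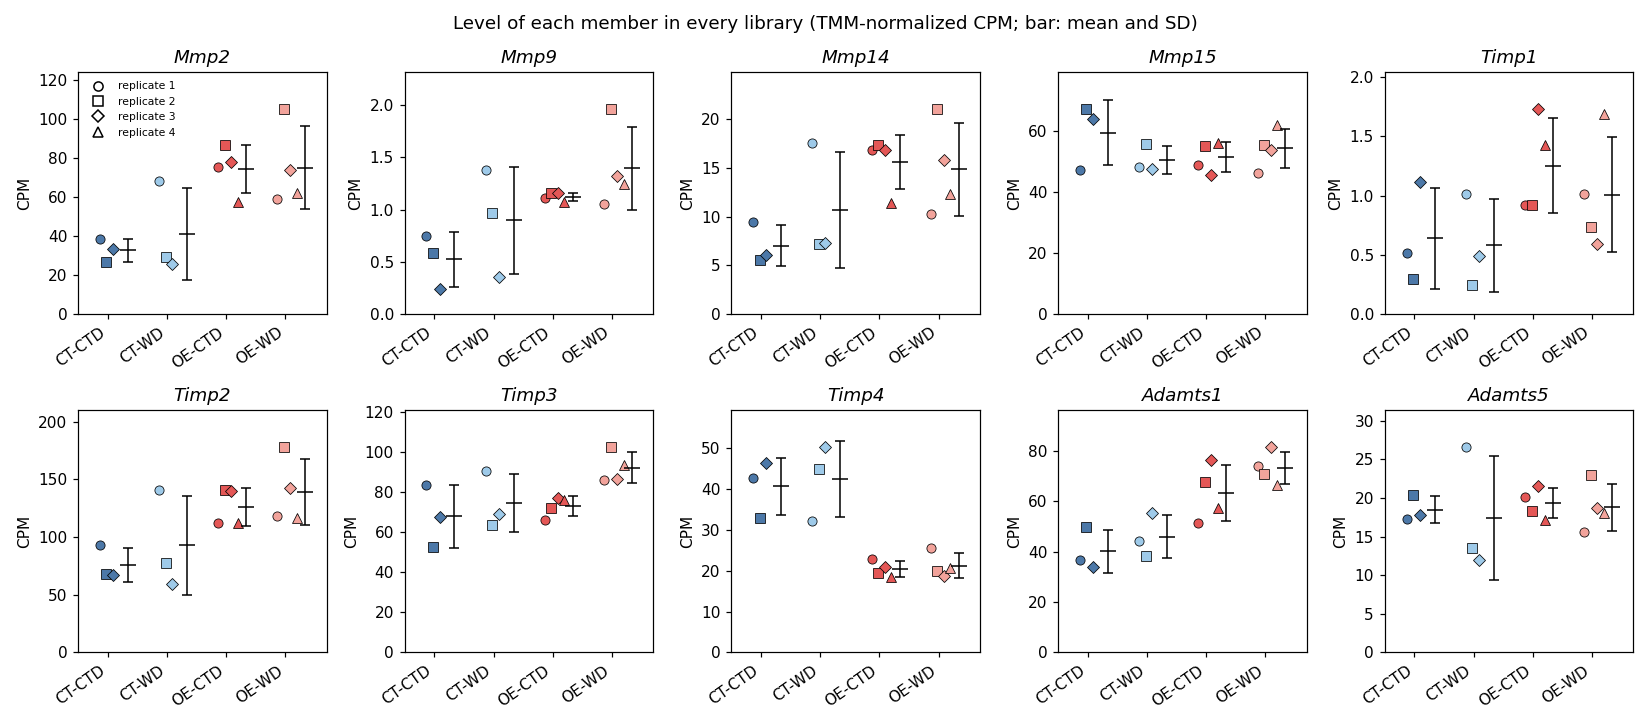
Level of each of the 10 genes in every library, in TMM-normalized CPM on axes that start at 0; each marker is 1 library, its shape gives the replicate, and the black bar is the mean and SD of the group. All 8 EC-Myc OE libraries lie below all 6 CT libraries for Timp4 (18.4 to 25.7 against 32.1 to 50.3 CPM), and CT-WD 1 lies above CT-WD 2 and 3 for Mmp2, Mmp14 and Timp2.

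The first question was how the genotypes differed on control diet. Between OE-CTD and CT-CTD, Timp4 fell while Mmp2 and Adamts1 rose, so that 3 of the 10 genes were altered, where 1.91% of the 15458 genes tested were. At the unadjusted level 6 were altered, where 7.12% of all genes were, and 5 of these were higher (Mmp2, Mmp9, Mmp14, Timp2 and Adamts1), where 4.94% of all genes were. For the same 6 genes the CPM of the groups did not overlap, as was the case for 15.5% of all genes. The median log2 fold change over the 10 genes was 0.70, beside -0.00070 over all genes.

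On western diet Timp4 was again lower in EC-Myc OE. Between OE-WD and CT-WD it was the 1 gene of the 10 altered, where 0.563% of all genes were, and 3 were altered at the unadjusted level (Timp4, Mmp2 and Adamts1), where 5.74% of all genes were. Of these, 2 were higher, where 3.32% of all genes were. Timp4 and Adamts1 were the 2 genes whose groups did not overlap, as was the case for 11.6% of all genes. The median log2 fold change over the 10 genes was 0.52, beside 0.0056 over all genes. The comparisons between genotypes on each diet share no library, though they share the estimate of the spread. Without CT-WD 1, 5 of the 10 genes were altered on each diet, namely Timp4, Mmp2, Mmp14, Timp2 and Adamts1, in the fit with the larger counts of altered genes given above. CT-WD 1 was left out for its connective tissue and epidermis markers, and it was the highest CT library for Mmp2, Mmp14 and Timp2. The larger values of these genes on western diet in that fit therefore follow from that choice.

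Timp4 (ENSMUSG00000030317, chr6:115241892-115252205, minus strand, GRCm38) encodes the inhibitor that is expressed mainly in heart, skeletal muscle, brain and fat. By replicate number, the CT-CTD libraries held 42.7, 32.9 and 46.3 CPM and the CT-WD libraries 32.1, 45.0 and 50.3 CPM. The OE-CTD libraries held 23.0, 19.5, 20.8 and 18.4 CPM and the OE-WD libraries 25.7, 19.9, 18.7 and 20.8 CPM. The highest EC-Myc OE library, OE-WD 1, thus lay below the lowest CT library, CT-WD 1, and the genotypes overlapped on neither diet. The log2 fold change was -0.99 (SE 0.154, adjusted p = 0.00614 in edgeR) on control diet, a level 1.99-fold lower, and -0.998 (SE 0.154, adjusted p = 0.0193) on western diet, and Timp4 ranked 24 and 6 among the 15458 genes by p-value. On control diet its adjusted p stayed under 0.05 when any 1 of the 14 libraries was left out, between 0.00126 and 0.0357. On western diet it rose to 0.0658 without CT-WD 2, 0.0934 without CT-WD 3, 0.0883 without OE-WD 2, 0.0576 without OE-WD 3 and 0.0964 in a model of CT-WD and OE-WD alone, with log2 fold changes between -1.002 and -0.86. With the replicate number as a block, the adjusted p in edgeR was 0.0851 on control diet and 0.238 on western diet, though these numbers did not pair the genotypes.

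The call also depended on counting libraries with a shared code number as separate samples. When the counts of such libraries were summed within a group, an alternative chosen after seeing the data that left 2 samples in OE-CTD and 1 in OE-WD, the log2 fold change of Timp4 was -1.04 (SE 0.201, adjusted p = 0.183) on control diet and -0.996 (SE 0.258, adjusted p = 1) on western diet. None of the 10 genes was altered at the adjusted level in that fit, and 1 gene of 16230 tested was on control diet and 0 on western diet. At the unadjusted level 5 of the 10 were altered on control diet (Timp4, Mmp2, Mmp14, Timp2 and Adamts1), where 698 of all genes were, and 2 on western diet (Timp4 and Adamts1), where 336 were. The lone OE-WD sample was there assumed to vary like the other groups. When CT-WD and OE-CTD swapped their names, the lower level of Timp4 became a difference between diets, with a log2 fold change of 0.06 between the genotypes on either diet.

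Timp4 lies wholly inside Syn2, a synapsin gene on the opposite strand (chr6:115134902-115282006), and exons of the pair overlap in GENCODE M21. The strand setting of the counting is not given in the sources used here, so reads from either strand cannot be told apart, and their part in the level of Timp4 was not tested. Syn2 was counted at a mean of 0.662 CPM over the 14 libraries and Timp4 at 29.7 CPM. Timp1 and Timp3 lie in the same way inside Syn1 and Syn3, which had means of 0.122 and 0.266 CPM against 0.907 and 77.5 CPM. Timp1 and Syn1 shared no exon, while Timp3 and Syn3 did. A second gene on the opposite strand that encloses Timp4, Gm17482, had 0 counts throughout.

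**Figure D2:**
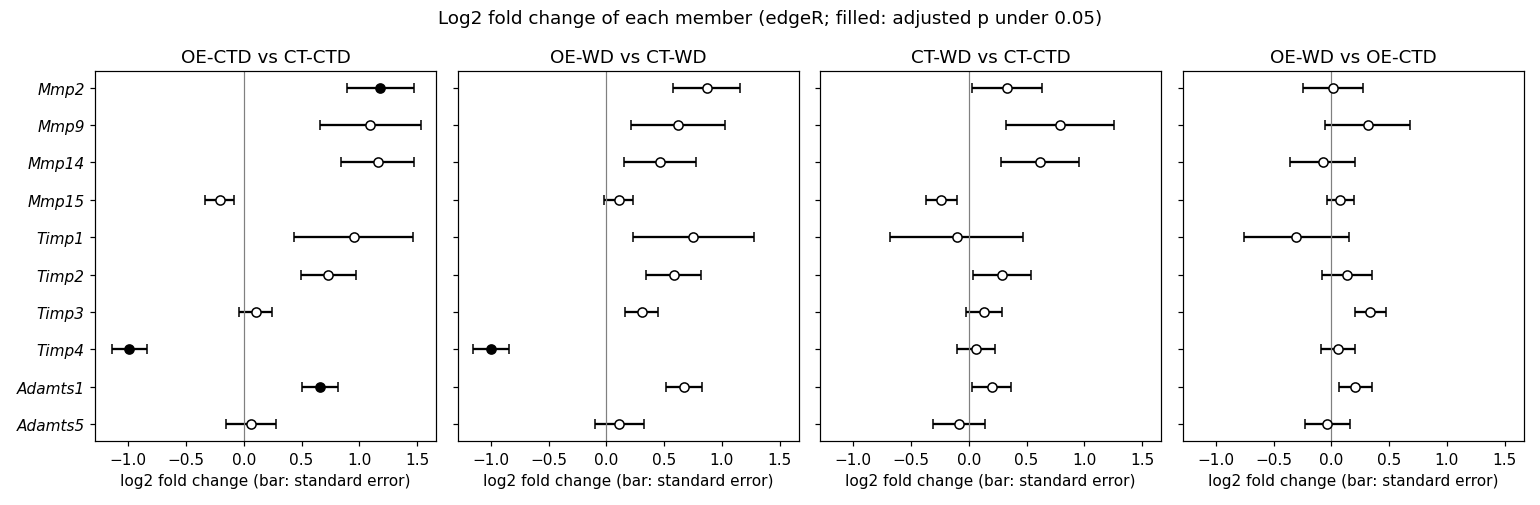
Log2 fold change of each of the 10 genes in the genotype comparisons (left pair of panels) and the diet comparisons (right pair), from edgeR; the points are estimates, the bars are 1 standard error, and filled points have an adjusted p under 0.05. Timp4 is the filled point at -0.99 on control diet and at -0.998 on western diet, and Mmp2 and Adamts1 are filled on control diet, while the interaction of diet and genotype did not pass the test for these genes.

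Mmp2, the gelatinase of fibroblasts (ENSMUSG00000031740, chr8:92827291-92853420, plus strand), was the most abundant of the metalloproteinases in EC-Myc OE. By replicate number, the CT-CTD libraries held 38.3, 26.6 and 33.5 CPM and the CT-WD libraries 68.0, 29.4 and 25.7 CPM. The OE-CTD libraries held 75.2, 86.5, 77.9 and 57.4 CPM and the OE-WD libraries 59.0, 105.1, 74.0 and 62.0 CPM. All OE-CTD libraries lay above all CT-CTD libraries, and on western diet CT-WD 1 reached into the range of OE-WD. The log2 fold change was 1.179 (SE 0.290, adjusted p = 0.0425 in edgeR) on control diet and 0.87 (SE 0.286, adjusted p = 0.148) on western diet. The call on control diet was lost in 7 of the 14 fits that left out 1 library, with log2 fold changes from 1.05 to 1.30 over all 14. The adjusted p was then 0.0581, 0.186 and 0.159 without CT-CTD 1, 2 and 3, 0.0869, 0.122 and 0.104 without OE-CTD 1, 2 and 3, and 0.0610 without OE-WD 3. Without CT-WD 1, the value on western diet was 1.45 (SE 0.228, adjusted p = 0.00271), and without CT-WD 3 it was 0.62 (adjusted p = 0.497).

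Mmp14, the membrane enzyme that activates Mmp2 (ENSMUSG00000000957, chr14:54431612-54445364, plus strand), was measured at 9.41, 5.61 and 6.04 CPM in the CT-CTD libraries and at 17.6, 7.25 and 7.29 CPM in the CT-WD libraries. Levels were 16.9, 17.4, 16.9 and 11.4 CPM among OE-CTD libraries and 10.2, 21.1, 15.8 and 12.3 CPM among OE-WD libraries. CT-WD 1 was again the CT library closest to EC-Myc OE, and OE-WD 2 was the highest of all, as for Mmp2. The log2 fold change was 1.16 (SE 0.319, adjusted p = 0.0716) on control diet, which missed the adjusted level, and 0.46 (SE 0.309, adjusted p = 0.480) on western diet. Without CT-WD 1 these were 1.16 (adjusted p = 0.0148) and 1.03 (adjusted p = 0.0327). On western diet the value was 0.24 without OE-WD 2, and the adjusted p reached 0.859 without CT-WD 3. Mmp9, the gelatinase best known from neutrophils and macrophages, ranged from 0.238 to 0.751 CPM in CT-CTD and from 1.07 to 1.15 CPM in OE-CTD, with a log2 fold change of 1.09 (SE 0.437, adjusted p = 0.229). On western diet the groups overlapped, at 0.62 (SE 0.410, adjusted p = 0.475), with 1.087 (adjusted p = 0.150) without CT-WD 1 and 0.25 (adjusted p = 0.880) without CT-WD 3. Mmp15 kept 45.8 to 67.3 CPM over all libraries, and its groups overlapped in each comparison.

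Timp2 (ENSMUSG00000017466, chr11:118301069-118355740, minus strand), which also serves as the adaptor between Mmp14 and the Mmp2 proform, ran parallel to both. It was measured at 92.9, 68.2 and 67.0 CPM in the CT-CTD libraries and at 140.9, 77.6 and 59.5 CPM in the CT-WD libraries. Levels were 112.5, 140.4, 140.0 and 111.7 CPM among OE-CTD libraries and 118.5, 177.9, 142.2 and 116.6 CPM among OE-WD libraries. OE-WD 2 was highest for Timp2, Mmp2 and Mmp14, and CT-WD 1 was the highest CT library for each of these genes. The log2 fold change of Timp2 was 0.73 (SE 0.236, adjusted p = 0.124) on control diet and 0.58 (SE 0.235, adjusted p = 0.229) on western diet, neither past the adjusted level. Without CT-WD 1 they were 0.73 (adjusted p = 0.0222) and 1.02 (adjusted p = 0.00666), while on western diet the value was 0.34 (adjusted p = 0.655) without CT-WD 3.

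Timp1 and Timp3 were altered in neither genotype comparison. Timp3, an inhibitor that binds to the matrix, ranged from 52.3 to 83.4 CPM in CT-CTD and from 66.1 to 76.9 CPM in OE-CTD, which overlapped. On western diet its log2 fold change between genotypes was 0.31 (SE 0.143, adjusted p = 0.292), under the fold limit, with 0.48 (adjusted p = 0.0502) without CT-WD 1 and 0.20 (adjusted p = 0.659) without CT-WD 2. OE-WD 2 held the most Timp3, as it did for Timp2. Timp1, an inhibitor induced in injury and inflammation, had between 0.242 and 1.11 CPM in CT and between 0.596 and 1.73 CPM in EC-Myc OE, with overlapping groups and log2 fold changes of 0.95 (SE 0.517, adjusted p = 0.403) on control diet and 0.75 (SE 0.525, adjusted p = 0.502) on western diet. With 1 library left out these ran from 0.61 to 1.61 and from 0.39 to 1.44.

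Adamts1, a proteinase of versican and aggrecan with antiangiogenic domains (ENSMUSG00000022893, chr16:85793827-85803113, minus strand), was measured at 36.7, 49.6 and 33.9 CPM in the CT-CTD libraries and at 44.3, 38.3 and 55.2 CPM in the CT-WD libraries. Levels were 51.5, 67.6, 76.4 and 57.5 CPM among OE-CTD libraries and 74.1, 70.6, 81.5 and 66.3 CPM among OE-WD libraries. The genotypes did not overlap on either diet, and here CT-WD 1 lay between CT-WD 2 and 3. The log2 fold change was 0.66 (SE 0.158, adjusted p = 0.0386 in edgeR) on control diet and 0.67 (SE 0.158, adjusted p = 0.0610) on western diet. Of the 14 fits that left out 1 library, 7 lost the call on control diet, with log2 fold changes between 0.55 and 0.84 over all 14. The adjusted p was then 0.105 and 0.199 without CT-CTD 1 and 3, 0.113 and 0.121 without OE-CTD 2 and 3, and 0.0519, 0.0504 and 0.0517 without OE-WD 1, 2 and 3. On western diet the call was made without CT-WD 1 (0.65, SE 0.184, adjusted p = 0.0411). Adamts5, the aggrecanase encoded 53059 bases away on the same strand, had group means of 18.5 ± 1.72 CPM (SD, n = 3) in CT-CTD and 19.3 ± 1.94 CPM (SD, n = 4) in OE-CTD, and log2 fold changes of 0.06 (SE 0.213) and 0.11 (SE 0.214) between genotypes. Without CT-WD 1, whose 26.6 CPM stood against 13.5 and 12.0 CPM in CT-WD 2 and 3, the value on western diet was 0.56 (adjusted p = 0.0299), under the fold limit, and without CT-WD 3 it turned to -0.096.

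The western diet altered none of the 10 genes in either genotype at the adjusted or the unadjusted level in the edgeR fit of all 14 libraries, and DESeq2 also called 0 at both levels. Mmp14 passed the unadjusted level with diet in CT mice when no filter on low counts was used, and without CT-CTD 1, CT-WD 2 or CT-WD 3, and without CT-WD 3 Mmp9 did as well. Between CT-WD and CT-CTD, where 0% of all genes passed at the adjusted and 3.05% at the unadjusted threshold, log2 fold changes ran from -0.24 for Mmp15 to 0.78 for Mmp9, and the smallest adjusted p was 0.770 for Mmp14. Without CT-WD 1 the log2 fold change was 0.32 for Mmp9 and 0.05 for Mmp14. For Mmp2 it turned from 0.33 to -0.25 and for Timp2 from 0.29 to -0.15, and for Adamts5 it was -0.54. With the replicate number as a block, by which the CT groups were taken as paired, 10 of 15458 genes and 0 of the 10 were altered, and the adjusted p of Mmp14 was 0.299. For none of the 10 genes did these groups separate in CPM, as they did for 9.63% of all genes. Between OE-WD and OE-CTD, where 0.00647% of all genes passed at the adjusted and 1.37% at the unadjusted threshold, log2 fold changes ran from -0.30 for Timp1 to 0.34 for Timp3. Timp3 measured 66.1, 71.9, 76.9 and 76.1 CPM among OE-CTD libraries and 85.7, 102.3, 86.4 and 93.2 CPM among OE-WD libraries, without overlap, as was the case for 4.08% of all genes. Its log2 fold change of 0.34 (SE 0.132, adjusted p = 0.9999) stayed under the fold limit and did not pass the correction.

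The diet responses of the genotypes were compared as a diet by genotype interaction, in which 0% of all genes passed at the adjusted and 2.7% at the unadjusted threshold. None of the 10 genes passed either level in the edgeR fit of all 14 libraries or in DESeq2, and the smallest adjusted p was 0.857 for Mmp15 (log2 difference 0.32, SE 0.177). Mmp14 passed the unadjusted level with the replicate number as a block (adjusted p = 0.364) and when no filter was used (adjusted p = 0.994). For Timp4 the log2 difference between the genotype effects on both diets was -0.01 (SE 0.219), for Adamts1 0.01 (SE 0.220) and for Mmp2 -0.31 (SE 0.398).

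The share of each inhibitor in the TIMP total was set beside the proteinases as summed FPKM, a description without a test. Timp4 made up 19.6% ± 2.80 of the 4 TIMP genes in CT-CTD (SD, n = 3) and 19.2% ± 8.18 in CT-WD (SD, n = 3), and 7.57% ± 1.176 in OE-CTD (SD, n = 4) and 7.13% ± 1.74 in OE-WD (SD, n = 4). In CT-WD 1 it made up 10.1%, close to the highest EC-Myc OE value of 9.39% in OE-WD 1. Timp2 took 55.1% ± 4.76 in CT-CTD and 70.0% ± 2.62 in OE-CTD, and 56.5% ± 10.3 in CT-WD and 68.6% ± 4.51 in OE-WD, where the ranges overlapped. Summed over the 6 proteinases, FPKM were 34.2 ± 1.57 in CT-CTD, 36.9 ± 8.57 in CT-WD, 52.7 ± 5.19 in OE-CTD and 55.6 ± 8.28 in OE-WD, and summed over the 4 inhibitors they were 38.7 ± 6.41, 44.4 ± 12.1, 50.5 ± 4.67 and 56.6 ± 8.01. The ratio of inhibitors to proteinases was 1.14 ± 0.233, 1.20 ± 0.0669, 0.960 ± 0.0530 and 1.02 ± 0.0368 in the same order, and its ranges overlapped between CT-CTD and OE-CTD but not between CT-WD (1.121 to 1.24) and OE-WD (0.979 to 1.07).

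At the adjusted level, some genes on which these enzymes act were higher in EC-Myc OE. Of 32 matrix substrates, 30 were tested, and 11 were altered on control diet at the adjusted level, all higher, and 26 at the unadjusted level, all higher, with a median log2 fold change of 0.91. Over all genes, 1.91% and 7.12% were altered at these levels on control diet, and 0.563% and 5.74% on western diet, and these shares also belong beside the counts of the lists that follow. The fibrillin gene Fbn1 had 64.4 ± 5.66 CPM in OE-CTD and 18.1 ± 2.84 in CT-CTD (log2 fold change 1.83, SE 0.265, adjusted p = 0.00575). The basement membrane genes Lama4 (0.76, SE 0.123, adjusted p = 0.00627), Col4a2 (0.90, SE 0.150, adjusted p = 0.00705) and Col4a1 (0.89, SE 0.164, adjusted p = 0.0112) followed. On western diet 6 of the 30 were altered, all higher, and 19 at the unadjusted level, with a median of 0.76, led by Lama4 (0.70, SE 0.122, adjusted p = 0.0277), Col18a1 (1.01, SE 0.186, adjusted p = 0.0299), Col15a1 (1.22, SE 0.238, adjusted p = 0.0322) and Col4a2 (0.76, SE 0.149, adjusted p = 0.0324). The counts on western diet moved with single libraries, to 24 and 27 without CT-WD 1, where 905 and 1875 of 15828 genes were altered at these levels, and to 0 and 10 without OE-WD 2, where 4 and 664 of 15362 were. CT-WD 1 was left out partly for its fibroblast markers, 4 of which are also substrates, so the larger counts are not independent of that choice. On control diet the adjusted count was 21 without CT-WD 1 and the unadjusted count was again 26. With shared code numbers summed, 17 substrates on control diet passed the unadjusted level, where 698 of 16230 genes did, and 1 of all genes passed the adjusted level. That fit left 1 sample in OE-WD, so its counts of substrates on western diet are not read. The western diet altered 0 substrates past the adjusted level in edgeR, and the unadjusted counts were 2 for CT and 0 for EC-Myc OE mice.

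Of 25 activators, receptors and other inhibitors, 21 were tested, and 2 were altered on control diet, the collagen chaperone gene Serpinh1 (0.87, SE 0.194, adjusted p = 0.0299) and Plau (0.61, SE 0.139, adjusted p = 0.0317), which encodes urokinase. At the unadjusted level 10 were higher on control diet and 4 on western diet, and 0 were lower, with medians of 0.56 and 0.35. On western diet 0 passed the adjusted level, and the smallest p-values were those of Plat (0.78, SE 0.255, adjusted p = 0.146) and the clearance receptor gene Lrp1 (0.67, SE 0.233, adjusted p = 0.164). Without CT-WD 1 these 2 genes passed it (Plat 1.23, SE 0.235, adjusted p = 0.00699, and Lrp1 1.04, SE 0.215, adjusted p = 0.00997), as they did on control diet beside Serpinh1 and Plau, with 8 and 10 genes at the unadjusted level, where 1875 and 1208 of 15828 were. Of 23 AP-1 and other upstream factors, 20 were tested, and 2 were altered on control diet, Junb (44.0 ± 13.1 against 14.9 ± 3.99 CPM, log2 fold change 1.56, SE 0.260, adjusted p = 0.00704) and Tgfb1 (0.91, SE 0.197, adjusted p = 0.0253), and 4 were higher and 1 lower at the unadjusted level. On western diet 0 passed at the adjusted and 3 at the unadjusted threshold, with Ets1 at 0.65 (SE 0.161, adjusted p = 0.0709) and Atf3 at -2.45 (SE 0.682, adjusted p = 0.101), for which the CT-WD mean of 117 ± 165 CPM had an SD above the mean. Without CT-WD 1 both were altered (Ets1 0.65, SE 0.189, adjusted p = 0.0432, and Atf3 -2.90, SE 0.651, adjusted p = 0.0145). With diet in CT mice 6 factors passed the unadjusted level, where 3.05% of all genes did, 5 of them higher in CT-WD, among them Fosb (2.35, SE 0.576, adjusted p = 0.394).

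With all 14 libraries, the rest of the proteinase families passed the adjusted level in none of the 5 comparisons. Of 19 other MMP genes only 7 passed the filter, and 3 were higher on control diet at the unadjusted level, among them the macrophage elastase gene Mmp12 (1.74 ± 1.71 CPM in OE-CTD against 0.107 ± 0.120 in CT-CTD, log2 fold change 3.96, SE 1.28, adjusted p = 0.126) and Mmp19 (1.37, SE 0.475, adjusted p = 0.153). Of 17 other ADAMTS genes 13 were tested, and 3 were higher on control diet, among them the procollagen processing gene Adamts2 (0.73, SE 0.213, adjusted p = 0.0843), and 2 on western diet, where Adamts8 had 5.62 ± 1.53 CPM in OE-WD against 1.65 ± 1.30 in CT-WD (1.73, SE 0.426, adjusted p = 0.0700). All 8 ADAM sheddase genes were tested, with 1 higher on control diet at the unadjusted level (4.94% of all genes were), Adam8 (1.48, SE 0.547, adjusted p = 0.187), and 2 on western diet (3.32% of all genes were), among these Adam19 (0.78, SE 0.214, adjusted p = 0.0990). Adam15 had the smallest p-value on control diet, under the fold limit (0.39, SE 0.116, adjusted p = 0.0908). Without CT-WD 1, Adamts8 (2.63, SE 0.419, adjusted p = 0.00295), Adamts2 (0.82, SE 0.181, adjusted p = 0.0140) and Adam19 (0.99, SE 0.233, adjusted p = 0.0184) were altered on western diet and Adamts2 on control diet (0.73, SE 0.155, adjusted p = 0.0162), while 0 other MMP genes were.

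Markers of connective tissue cells moved with Mmp2, Mmp14, Timp2 and the substrates. All 9 fibroblast and fibro-adipogenic progenitor markers were higher in OE-CTD than in CT-CTD at the unadjusted level and 2 at the adjusted level, Cd34 (0.60, SE 0.144, adjusted p = 0.0389) and Pi16 (0.66, SE 0.163, adjusted p = 0.0425), where 4.94% of all genes were higher at the unadjusted level, and on western diet 1 was at the unadjusted level, where 3.32% of all genes were higher, Col1a1 (1.30, SE 0.537, adjusted p = 0.240). Without CT-WD 1, 7 were altered on control diet and 4 on western diet (Col1a1, Cd34, Col3a1 and Dcn), with 9 and 7 at the unadjusted level, where 1208 and 1875 of 15828 genes were, and the median on western diet was 0.83 instead of 0.49. As that library was left out partly for its high sum of these markers, their rise on western diet follows from that choice. Without OE-WD 2, 0 markers passed either level on western diet, with a median of 0.33, and 4 were altered on control diet. Gsn was the most abundant of them with a mean of 731 CPM, none was at 0 counts in any library, and 4 of the 9 are also among the substrates. Summed over the list, the CT-CTD libraries held 1108, 944 and 789 CPM and the CT-WD libraries 2057, 932 and 919 CPM. The sums were 1845, 2189, 2086 and 1218 CPM among OE-CTD libraries and 1595, 3035, 1904 and 1385 CPM among OE-WD libraries. The library with the highest sum, OE-WD 2, was also the highest for Mmp2, Mmp14 and Timp2, and CT-WD 1 lay among the EC-Myc OE libraries in the sum as in these 3 genes. For Timp4, CT-WD 1 was the lowest CT library, with 32.1 CPM beside a sum of 2057 CPM, and OE-CTD 4 and OE-WD 4 had 18.4 and 20.8 CPM beside sums of 1218 and 1385 CPM.

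**Figure D3:**
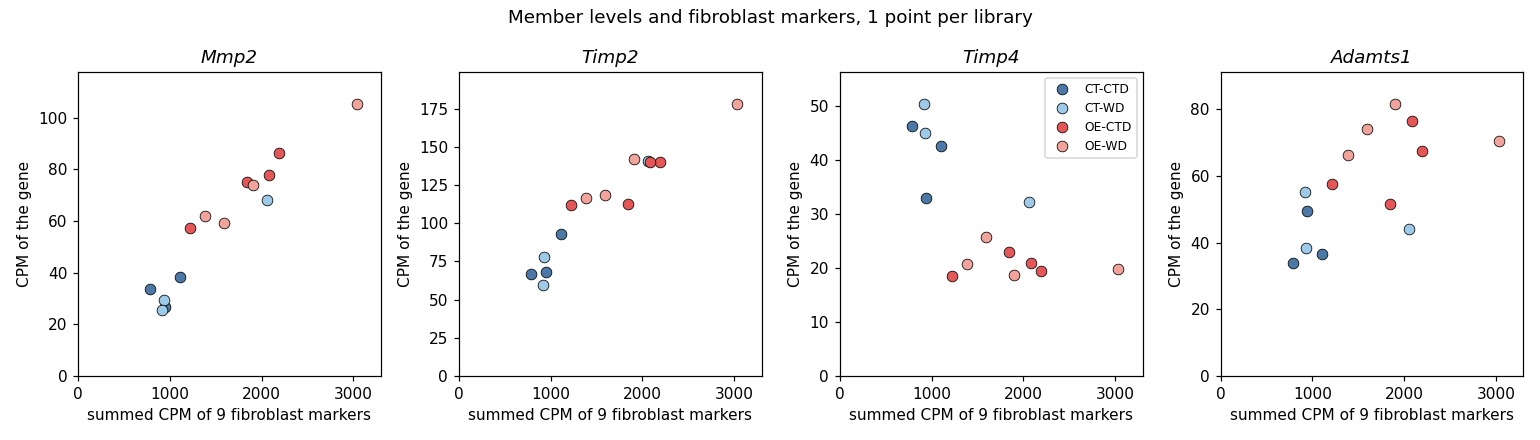
CPM of Mmp2, Timp2, Timp4 and Adamts1 (vertical axes, from 0) against the summed CPM of the 9 fibroblast markers (horizontal axes), with 1 point per library colored by group. Mmp2 and Timp2 rise along the axis from the CT libraries to OE-WD 2, at 3035 CPM of markers, with CT-WD 1 among the EC-Myc OE points, while for Timp4 the EC-Myc OE libraries lie at 18.4 to 25.7 CPM across the axis.

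Tendon markers moved in the same libraries. Of the 8, 5 were higher on control diet and 1 on western diet at the unadjusted level, among them Thbs4 (1.15, SE 0.332, adjusted p = 0.0842, and 1.11, SE 0.331, adjusted p = 0.118), and the most abundant was Fmod with a mean of 192 CPM. Summed, they gave 250, 107 and 171 CPM for CT-CTD, 520, 86.4 and 110 CPM for CT-WD, 428, 655, 532 and 324 CPM for OE-CTD, and 439, 910, 600 and 319 CPM for OE-WD, in replicate order. No tendon marker was at 0 counts in any library. Without CT-WD 1, 7 of the 8 were altered on western diet, with a median log2 fold change of 3.37 instead of 1.29. On control diet 5 were, with a median of 1.46 in both fits. At the unadjusted level 5 were lower in CT-WD than in CT-CTD, where 475 of 15828 genes were. CT-WD 1 was left out partly for its high tendon sum, so these moves in the comparisons with CT-WD follow from that choice. Without OE-WD 2, the median on western diet was 0.88, with 1 marker at the unadjusted level. Of 9 macrophage markers 7 were higher on control diet and 0 on western diet at the unadjusted level, led by C1qa (0.88, SE 0.245, adjusted p = 0.0724), and Lyz2 was the most abundant with a mean of 28.1 CPM. The macrophage sums in the same order were 86.8, 52.6 and 46.6 CPM for CT-CTD, 139, 70.2 and 57.6 CPM for CT-WD, 88.8, 108, 138 and 87.1 CPM for OE-CTD, and 83.6, 137, 84.5 and 90.7 CPM for OE-WD. No macrophage marker was at 0 counts in any library. Without CT-WD 1, 1 macrophage marker was altered on western diet, Csf1r (1.15, SE 0.340, adjusted p = 0.0469), with 3 at the unadjusted level (1875 of 15828 genes were) and a median of 0.58 instead of 0.10, and 2 were on control diet, C1qa and C1qb. Without OE-WD 2 the median on western diet was -0.04. The part of these cell types in the differences of the 10 genes was not tested.

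Endothelial markers, of the cells that carry the active transgene, passed the altered level in neither genotype comparison, though Tek (0.52, SE 0.110, adjusted p = 0.0232 on control diet) and Cdh5 (0.46, SE 0.0905, adjusted p = 0.0322 on western diet) were higher by less than 1.5-fold. The summed level of the 10 markers was 446 ± 14.4 CPM in CT-CTD, 518 ± 33.4 in CT-WD, 537 ± 35.3 in OE-CTD and 583 ± 11.4 in OE-WD, with Eng the most abundant at a mean of 94.6 CPM. Neutrophil markers, of a cell known for Mmp9, were near 0: 5 of the 10 (Ngp, Camp, Retnlg, Elane and Mpo) had at most 3 counts in every library, and the sum was between 0.459 and 3.11 CPM. Of 7 smooth muscle and pericyte markers 1 was higher on each diet at the unadjusted level, where 4.94% and 3.32% of all genes were, Cspg4 (0.66, SE 0.220, adjusted p = 0.137, and 0.78, SE 0.221, adjusted p = 0.105), and on western diet Pdgfrb had the smallest p-value, under the fold limit (0.44, SE 0.120, adjusted p = 0.0936). Of 7 epidermis markers, 1 was higher and 1 lower on control diet and 0 passed on western diet, and of the 3 tested among 8 bone and cartilage markers 1 was higher on each diet, all at the unadjusted level. Without CT-WD 1, 5 epidermis markers were higher on western diet at that level, with a median log2 fold change of 2.83 instead of 0.86. All 3 bone and cartilage markers were, with a median of 2.02 instead of 1.08, where 1302 of 15828 genes were higher. CT-WD 1 was left out partly for its epidermis markers, so their rise follows from that choice. Blood (4 of 5 tested) and Schwann cell (6 of 6) markers passed neither level between genotypes. Skeletal muscle markers, led by Myh4 with a mean of 48980 CPM, were abundant in each library and 0 of 11 passed either level, but their sum was 177759 CPM in OE-CTD 4 and 182039 CPM in OE-WD 4 against 125906 to 165196 CPM in the other 12 libraries. Without CT-WD 1, genes altered on western diet in these lists were Pdgfrb (0.60, SE 0.117, adjusted p = 0.00790), Cspg4 (0.94, SE 0.252, adjusted p = 0.0322), the epidermis marker Dsp (2.64, SE 0.778, adjusted p = 0.0465), the bone marker Ctsk (2.27, SE 0.456, adjusted p = 0.00891) and the muscle marker Myh7 (0.60, SE 0.179, adjusted p = 0.0475), and on control diet there were 0. The median over the 11 muscle markers on western diet was -0.15 in that fit.

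In the diet comparisons and the interaction, 0 genes of any of these lists passed the adjusted level with all 14 libraries. At the unadjusted level, those higher in CT-WD than in CT-CTD beside the AP-1 factors were Mmp19, Adamts4, the substrates Vcan and Fbn1, and the markers Cldn5, Pdgfra, C1qa, C1qb and Lor, while Adam12 was lower, and 3.05% of all genes passed. Without CT-WD 1, 0 other MMP genes and 0 fibroblast, macrophage and epidermis markers were higher in this comparison. Of the substrates 1 was higher and 2 were lower, where 385 of 15828 genes were higher and 475 lower. Between OE-WD and OE-CTD they were the epidermis markers Krt10 and Dsp, both higher, where 1.37% of all genes passed. In the interaction they were Mmp19, Adam8, Fbn1, Cldn5, Pdgfra and C1qa and 4 of the 20 upstream factors, Junb, Atf3, Egr1 and Fos, all with negative values, where 2.7% of all genes passed. Without CT-WD 1, 4 upstream factors and 1 muscle marker passed with negative values. Positive values were found for 5 tendon, 5 adipocyte, 3 epidermis and 1 fibroblast markers and 3 substrates, with 0 negative in these lists. Of the other MMP genes and the macrophage markers 0 passed. Among all genes in that fit, 458 of 15828 passed with positive and 319 with negative values.

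Over the 14 libraries the genes with log2 CPM most like that of each member, by Pearson r among 11784 protein-coding genes and as a description only, were the following. For Mmp2 they were Col16a1 (r = 0.988), Mfap4 (0.987) and Col1a1 (0.986), for Mmp14 Igfbp6 (0.979), Serpinf1 (0.967) and Pamr1 (0.965), and for Timp2 Igfbp6 (0.981), Tgfbi (0.981) and Fndc1 (0.979). Igfbp6 was thus nearest to both Mmp14 and Timp2. For Timp4 they were Fkbp5 (r = 0.955), Sra1 (0.952) and Eif4ebp1 (0.942), and for Adamts1 Lasp1 (0.915), Calu (0.906) and Cav1 (0.903). The closest gene was Dtx4 for Mmp9 (0.946), Rasgrp3 for Adamts5 (0.917), Nhsl2 for Timp3 (0.903), Mapk14 for Mmp15 (0.891) and Frzb for Timp1 (0.870). These values hold the differences between groups as well as those within them.

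Promoters of 7 of the 10 genes were matched by name in the table of promoter sequences used here (GRCm38.p6), and those of Mmp2, Mmp9 and Adamts5 were not found in that table. Windows of 300 bases around the gene start were searched on both strands for CACGTG, the E-box bound by Myc with Max, and for TGANTCA, bound by AP-1. Neither was found in any of the 7 windows, while 7.15% and 7.81% of 32851 promoters held them, which says only that these letters are not in these windows. TATAAA, searched after the sequences were seen, was found in the window of Adamts1 alone and in 13.6% of all promoters. The 250 bases before the start of Timp4 and of Adamts1, the altered genes with a listed promoter, are shown because these genes moved in opposite directions on control diet, with TATAAA in capitals, at chr6:115252206-115252455 and chr16:85803114-85803363, both on the minus strand and read 5′ to 3′.
Timp4: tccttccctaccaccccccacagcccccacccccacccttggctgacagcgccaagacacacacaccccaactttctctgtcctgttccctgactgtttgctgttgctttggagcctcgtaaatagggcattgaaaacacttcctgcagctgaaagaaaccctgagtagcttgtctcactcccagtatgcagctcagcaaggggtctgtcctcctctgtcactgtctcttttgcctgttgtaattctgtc
Adamts1: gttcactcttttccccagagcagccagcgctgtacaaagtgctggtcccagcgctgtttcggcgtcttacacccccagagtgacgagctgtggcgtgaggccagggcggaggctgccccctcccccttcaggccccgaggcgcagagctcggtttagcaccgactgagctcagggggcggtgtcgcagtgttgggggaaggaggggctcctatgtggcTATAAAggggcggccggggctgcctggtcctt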

How the data were processed

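Skeletal muscle RNA was purified with poly-T beads and sequenced by the study. The authors deposited counts of reads per gene, without normalization, and the authors also deposited FPKM, which divide counts by gene length and a library total. The submitters' processing notes name HISAT2 2.0.5, featureCounts 1.5.0-p3 and mm10. Of 54409 gene identifiers shared with GENCODE M21 on GRCm38, 98.3% had the same position. The test of counts was that of edgeR 4.0.16 under R 4.3.3 (TMM, filterByExpr, quasi-likelihood test, a mean per group over all 14 libraries, standard errors from the F statistic), with Benjamini-Hochberg adjustment over 15458 genes in each comparison. The biological coefficient of variation was 17.0%. Log2 CPM used a prior count of 2. Scripts were tested on simulated data.

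The 10 genes and the lists of pathway genes and cell type markers were chosen with earlier results of these data known. For the genotype comparisons of most lists, up to 4 genes past the adjusted level were named, or otherwise genes among those with the smallest p-values, and for the diet comparisons and the interaction those past the unadjusted level. Genes named without CT-WD 1 were chosen after the values were seen. Likeness was sought among protein-coding genes with a mean of at least 1 CPM. Alternatives were DESeq2 1.42.0, RLE factors, no filter, limma 3.58.1 on log2(FPKM + 1) and log2(FPKM + 0.1), models of 2 groups, a replicate block, exchanged group names, and leaving out each library. Summing libraries with a shared code number was added after seeing the data. As a check of pairing, deviations from group means were correlated between CT libraries with the same replicate number. The r values were 0.385, 0.123 and 0.203, each above 0.1. By this check alone, CT-WD was taken as paired with CT-CTD in the fit with a replicate block. Nothing in the labels pairs these mice, and libraries with unlike numbers were not correlated, so the check cannot show a pairing. The main edgeR fit of all 14 libraries held no pairing.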

Additional observations from a re-analysis of the deposited data

Results flagged for a closer look

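Mmp14 in OE-CTD 4 was 11.4 CPM, far below the 16.9 to 17.4 CPM of the other libraries of its group. Among the 20 sets of 4 values examined (10 genes in OE-CTD and OE-WD) it was the 1 library that stood apart, and chance alone gives about 1 in 20. Its fibroblast marker sum of 1218 CPM was also the lowest in OE-CTD, and its part in the level of Mmp14 was not tested.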

How the results depend on the processing

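On control diet, 3 of the 10 genes were altered between genotypes in edgeR. The count, with that over all genes in brackets, was 5 with DESeq2 (504 of 15458), 5 without a filter on low counts (570 of 27899), 5 in the model of OE-CTD and CT-CTD alone (437 of 14758), 1 with limma on log2(FPKM + 1) (117), 1 with limma on log2(FPKM + 0.1) (196), 0 with shared code numbers summed (1 of 16230), 0 with exchanged names (0), 6 at the unadjusted level (1101), and 1 to 5 when 1 library was left out (64 to 440). On western diet, where 1 was altered, the count was 2 with DESeq2 (308), 3 without a filter (401), 0 in the model of OE-WD and CT-WD alone (4 of 14860), 0 with shared code numbers summed (0), 0 with exchanged names (1), 3 at the unadjusted level (887), and 0 to 5 when 1 library was left out (4 to 905). RLE factors left both counts as they were (296 and 86 over all genes). With exchanged names, 3 genes were altered between CT-WD and CT-CTD and 1 between OE-WD and OE-CTD; in all other fits 0 were altered by diet or in the interaction, which could not be fitted with 2 groups only. Timp4 turned with exchanged names alone, to 0.062 on control diet and 0.056 on western diet. The cause of other moves was not tested, except that fewer samples entered the summed and leave-one-out fits.

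With the replicate number as a block, 0 of the 10 genes were altered on control diet (14 of all genes) and 0 on western diet (1 of all genes), with log2 fold changes of Timp4 of -0.93 (adjusted p = 0.0851) and -0.98 (adjusted p = 0.238). Numbers did not pair the genotypes (r from -0.230 to 0.0465) nor all OE libraries across diets (0.0711 to 0.338). For the CT groups, which were taken as paired by the check of replicate numbers alone, the block changed no call among the 10 genes.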

Other observations

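Adipocyte and slow fiber genes were also measured in these libraries. Of 8 adipocyte markers, the leptin gene Lep had 14.9 ± 8.11 CPM in OE-CTD against 3.90 ± 3.699 in CT-CTD (log2 fold change 1.95, SE 0.676, adjusted p = 0.154 in edgeR) and 8.18 ± 5.41 in OE-WD against 1.34 ± 1.28 in CT-WD (2.55, SE 0.753, adjusted p = 0.114), while Cfd had a log2 fold change of -1.34 (SE 0.538, adjusted p = 0.229) on control diet. When CT-WD and OE-CTD swapped their names, the Lep values between genotypes became -1.47 on control diet and -0.87 on western diet. Mean Lep then fell from CT-WD through OE-WD and CT-CTD to OE-CTD, the order of systemic leptin in the paper. Lep here is RNA in muscle with a wide spread, while the paper measured circulating leptin protein, after a shorter time on diet than the labels give. As labelled, Lep was higher in EC-Myc OE, whereas the paper reports less leptin in these mice on western diet. The paper also reports more genes changed by diet in CT than in EC-Myc OE mice, and fewer still between genotypes on western diet. At the unadjusted level these counts were 471, 212 and 887 as labelled, and 1101, 887 and 212 with exchanged names. The paper names no tool or correction for its counts. Which names hold was not tested. Summed adipocyte markers overlapped between all groups, from 171 to 514 CPM. Without CT-WD 1, where 905 of 15828 genes were altered on western diet, 3 adipocyte markers were too, Lep (3.75, SE 0.962, adjusted p = 0.0265), Adipoq (1.80, SE 0.483, adjusted p = 0.0316) and Plin1 (2.08, SE 0.592, adjusted p = 0.0411), and the median log2 fold change was 1.55 instead of 0.53. In the same fit 6 of the 8 were lower in CT-WD than in CT-CTD at the unadjusted level, where 475 of 15828 genes were, and 0 at the adjusted level. Of 6 slow fiber markers 0 were altered with all 14 libraries, and without CT-WD 1 the slow myosin gene Myh7 was on western diet (0.60, SE 0.179, adjusted p = 0.0475). The median over the 6 was 0.24 on control diet and -0.034 on western diet, or -0.169 on western diet without CT-WD 1. The calcium pump gene Atp2a2 had 1779 ± 135 CPM in OE-CTD against 1362 ± 219 in CT-CTD (0.39, SE 0.113, adjusted p = 0.0881) and 1762 ± 95.4 in OE-WD against 1296 ± 120 in CT-WD (0.44, SE 0.113, adjusted p = 0.0786).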
